A study of Mus musculus with 15 samples.

Results

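Ketone body enzymes and monocarboxylate transporters were followed in mouse mammary tumours through 8 genes: Bdh1, Bdh2, Oxct1 and Acat1 among the enzymes, and Slc16a1, Slc16a3, Slc16a6 and Slc16a7 among the transporters. They were chosen by name, with earlier results of these data known. Every array probe whose transcript identifier belongs to one of these genes was taken, which gave 12 probes, and all 12 lay well above background on all 15 arrays. They are 8 of the 28074 genes or unnamed transcripts tested.

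Bulk RNA of dissected mammary tumours from female mice was hybridised to 1-colour Agilent arrays. Nintedanib tumours (n = 4) came from mice given nintedanib, an inhibitor of the VEGF, FGF and PDGF receptor kinases, by gavage at 85 mg per kg per day. B20 tumours (n = 4) came from mice injected intraperitoneally with B20-4.1.1, an antibody against VEGF, at 5 mg per kg, 2 times per week. Vehicle tumours (n = 3) received the vehicle compound, whose composition and route are not given in the sources used here. Dosing began at 7 weeks of age, and these 3 groups were taken at its end, at an age not given. T0 tumours (n = 4) were taken before any treatment. One of them, T0 replicate 4, also carries a vehicle label and was placed in T0 by its title. The labels name the MMTV-PyMT line for the nintedanib, B20 and vehicle tumours and do not repeat it for T0. In this line a viral promoter active mainly in mammary epithelium drives a viral oncogene. Whether the samples within a group are separate animals is not given in the labels, and p-values then reflect just the sample-to-sample spread, part of which may be technical.

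Ketone bodies are made in liver mitochondria and burned elsewhere. Beta-hydroxybutyrate is oxidised to acetoacetate, which receives a CoA group and is split into acetyl-CoA for the TCA cycle. Ketone bodies, lactate and pyruvate cross membranes on monocarboxylate transporters, which carry them together with a proton and which need a partner glycoprotein to reach the cell surface. In tumours these transporters are best known for moving lactate out of glycolytic cells and into oxidative ones.

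A level is the log2 processed signal of a probe minus the 75th percentile of its array, so 0 is the brightness of the probe at that percentile. Differences are taken between samples within a probe, and brightness is named only to tell probes apart. A difference is in log2 units, followed by the SE from a single limma fit over all 15 arrays. Genes were called where the adjusted p was under 0.05 (limma, Benjamini-Hochberg over the 28074 genes).

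Median raw signals were 55 to 102 per array over a local background of 19 to 26. On 14 arrays 53.5% to 68.1% of probes were well above background, against 84.2% on T0 replicate 3. The end-of-treatment samples lay on a slide with 8 arrays and a slide with 3 arrays, and both held all of their groups. The T0 samples lay on 2 other slides, replicates 1 and 2 on one and replicates 3 and 4 on the other, and were read with another version of the extraction protocol. Slide, protocol version and T0 therefore cannot be told apart. Luminal epithelial markers, the defining genes of these carcinomas, were bright in all groups: the mean level of 8 such genes was 4.41 to 4.62 in nintedanib, 4.42 to 4.77 in B20, 4.49 to 4.74 in vehicle and 4.36 to 4.89 in T0 tumours. Markers of adipocytes, endothelium, skeletal muscle and fibroblasts were higher on average in T0 tumours, and adipocyte and endothelial means did not overlap between T0 and the rest. The mean level of 12 adipocyte genes was -0.49 to 2.32 in nintedanib and -0.20 to 2.11 in B20 tumours. It was -1.57 to -0.17 in vehicle and 2.84 to 5.65 in T0 tumours. All 12 were lower than in T0 in each of the end groups, with 9 called in each comparison. Of all genes, 4.61%, 3.72% and 2.12% were called lower than T0 in nintedanib, B20 and vehicle tumours. Adipoq was well above background on all arrays. Endothelial genes were also lower, with a mean level over 10 genes of -0.73 to -0.02 in nintedanib, -1.09 to -0.70 in B20, -0.63 to -0.13 in vehicle and 0.05 to 1.15 in T0 tumours, and 4, 8 and 3 of 10 called lower than T0 in nintedanib, B20 and vehicle tumours. All 12 skeletal muscle genes were lower than T0 in each end group and none was called, with mean levels of -0.58 to 3.40 in nintedanib, -0.18 to 6.33 in B20, -0.71 to 1.97 in vehicle and 1.18 to 6.80 in T0 tumours. The mean level of 8 fibroblast and matrix genes was 2.88 to 3.58 in nintedanib, 2.98 to 3.49 in B20, 3.06 to 3.90 in vehicle and 3.67 to 4.5 in T0 tumours, with 2, 1 and 0 of 8 called lower in nintedanib, B20 and vehicle tumours.

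Bdh1, the mitochondrial dehydrogenase that interconverts beta-hydroxybutyrate and acetoacetate, was the only one of the 8 genes called in any comparison. It rose in nintedanib tumours relative to T0, by 0.74 ± 0.22 (adjusted p = 0.0437 by limma), which is 1.67-fold. Its levels were 2.43, 2.03, 1.86 and 1.98 in nintedanib tumours, 1.85, 2.27, 2.07 and 1.76 in B20 tumours, 2.58, 1.92 and 1.96 in vehicle tumours, and 1.04, 1.16, 1.83 and 1.33 in T0 tumours. Every nintedanib and vehicle tumour lay above every T0 tumour. B20 overlapped T0 because T0 replicate 3, at 1.83, lay above B20 replicate 4, at 1.76. Vehicle exceeded T0 by 0.82 ± 0.23 (adjusted p = 0.0612) and B20 exceeded T0 by 0.65 ± 0.22 (adjusted p = 0.076), and neither passed the test. These comparisons share the T0 samples. Between the end groups, nintedanib minus vehicle was -0.08 (95% interval -0.58 to 0.42), B20 minus vehicle -0.17 (-0.67 to 0.33) and nintedanib minus B20 0.09 (-0.38 to 0.55).

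The nintedanib call for Bdh1 lay close to the threshold. It was lost under 13 of 21 alternatives. With slide as a random block the adjusted p was 0.084, and with median scaling 0.162, with no filter 0.066 and with only the 2 groups in the fit 0.0909. It was also lost when any of nintedanib replicates 1 to 4, T0 replicate 1, T0 replicate 2 or T0 replicate 4 was left out, with adjusted p-values of 0.0557 to 0.121. Without T0 replicates 1 and 2 the difference was 0.50 (adjusted p = 0.281), and without T0 replicates 3 and 4 it was 0.98 (adjusted p = 0.0165). T0 replicates 1 and 2 had the lowest Bdh1 levels and also the highest adipocyte levels, 5.65 and 4.79, against 2.93 and 2.84 in T0 replicates 3 and 4. The same 2 arrays had the highest T0 means of skeletal muscle (6.80 and 5.18), endothelial (1.15 and 0.71) and fibroblast genes (4.5 and 4.24). The part of RNA from these cell types in the Bdh1 difference was not tested. In bulk samples fewer cells of a type and less RNA per cell cannot be told apart. Bdh1 over all 15 arrays gave Pearson r = -0.83 with adipocyte, -0.62 with skeletal muscle, -0.75 with fibroblast and -0.71 with endothelial means. These values hold the step between T0 and the end groups. The relations that follow leave T0 out and so do not bear on that step. Over the 11 end-of-treatment arrays, which hold 3 groups, Bdh1 and the adipocyte mean gave Pearson r = -0.46 (permutation p = 0.153, adjusted p = 0.753 over 128 relations of the 8 genes with gene lists) and Spearman rho = -0.33 (permutation p = 0.327, adjusted p = 0.949). Without the 2 arrays farthest from the median adipocyte level r was -0.39, and on the 8-array slide alone it was -0.65. With the skeletal muscle, fibroblast and endothelial means Pearson r was -0.37, -0.29 and 0.19 over these arrays (permutation p = 0.259, 0.381 and 0.577, adjusted p = 0.833, 0.892 and 0.9), and Spearman rho was -0.34, -0.19 and 0.29 (permutation p = 0.311, 0.575 and 0.387, adjusted p = 0.949 each). Without the 2 farthest arrays these r were -0.10, -0.01 and 0.45, and on the 8-array slide -0.63, -0.40 and 0.07. The most negative r of Bdh1 with any list over the 11 arrays was with T and NK cells, -0.53 (permutation p = 0.0908, adjusted p = 0.726). On the 8-array slide r was -0.84 with macrophage and 0.77 with luminal epithelial genes.

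Bdh1 had 3 probes, and all 3 had their lowest group mean in T0 tumours. The 2 dimmer probes had levels of 0.55 to 0.95 and -2.15 to -1.89 in nintedanib tumours, 0.40 to 0.96 and -2.93 to -1.84 in B20 tumours, 0.53 to 1.16 and -2.71 to -1.71 in vehicle tumours, and -0.45 to 0.36 and -3.04 to -2.29 in T0 tumours. With every probe tested on its own, the differences of nintedanib from T0 were 0.74, 0.80 and 0.84, with adjusted p-values of 0.0471, 0.028 and 0.0543 by limma. The probe of middle brightness also passed the test for vehicle against T0 (0.85 ± 0.22, adjusted p = 0.0479) and for B20 against T0 (0.71 ± 0.21, adjusted p = 0.0499).

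**Figure D1:**
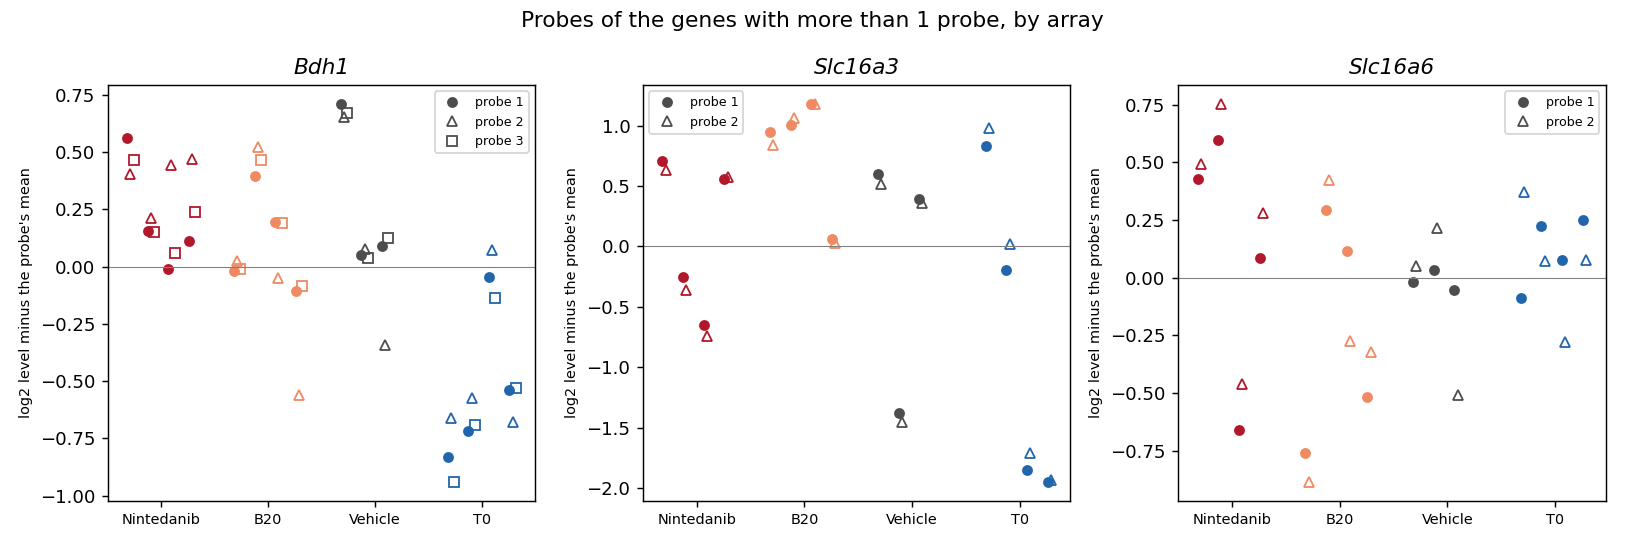
Each point is 1 probe on 1 array, as its log2 level minus that probe's mean over the 15 arrays (vertical axis), by group; probe 1 is the one used for the gene. The 3 Bdh1 probes lie lowest in T0 tumours, the 2 Slc16a3 probes coincide closely, and both Slc16a6 probes have their lowest mean in B20 tumours.

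The count of called members lay near the share called over the whole array. Relative to T0, 1 of 8 was called in nintedanib tumours, where 11.4% of all genes were called, 6.82% as higher and 4.61% as lower. None of 8 was called in B20 tumours, where 9.5% of genes were, 5.78% as higher and 3.72% as lower. None was called in vehicle tumours, where 4.92% were, 2.8% as higher and 2.12% as lower. Of all calls in nintedanib tumours 59.6% were higher than T0, and this share was 42.2% after normexp background correction. In vehicle tumours these shares were 56.9% and 46.3%, and in B20 tumours 60.8% and 53.8%. Against vehicle, and between the drugs, limma called 0 of 28074 genes. At an unadjusted p under 0.05 there were 1354 genes (4.82%) for nintedanib against vehicle, 911 (3.24%) for B20 against vehicle and 2628 (9.36%) for nintedanib against B20, and none of the 8 genes was among them. The median difference of the 8 genes was 0.02 for nintedanib against vehicle and 0.11 for B20 against vehicle, beside -0.01 and 0.04 over all genes tested. Against T0 it was -0.07 for nintedanib, -0.11 for B20 and -0.15 for vehicle, beside 0.01, 0.08 and 0.04 over all genes.

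**Figure D2:**
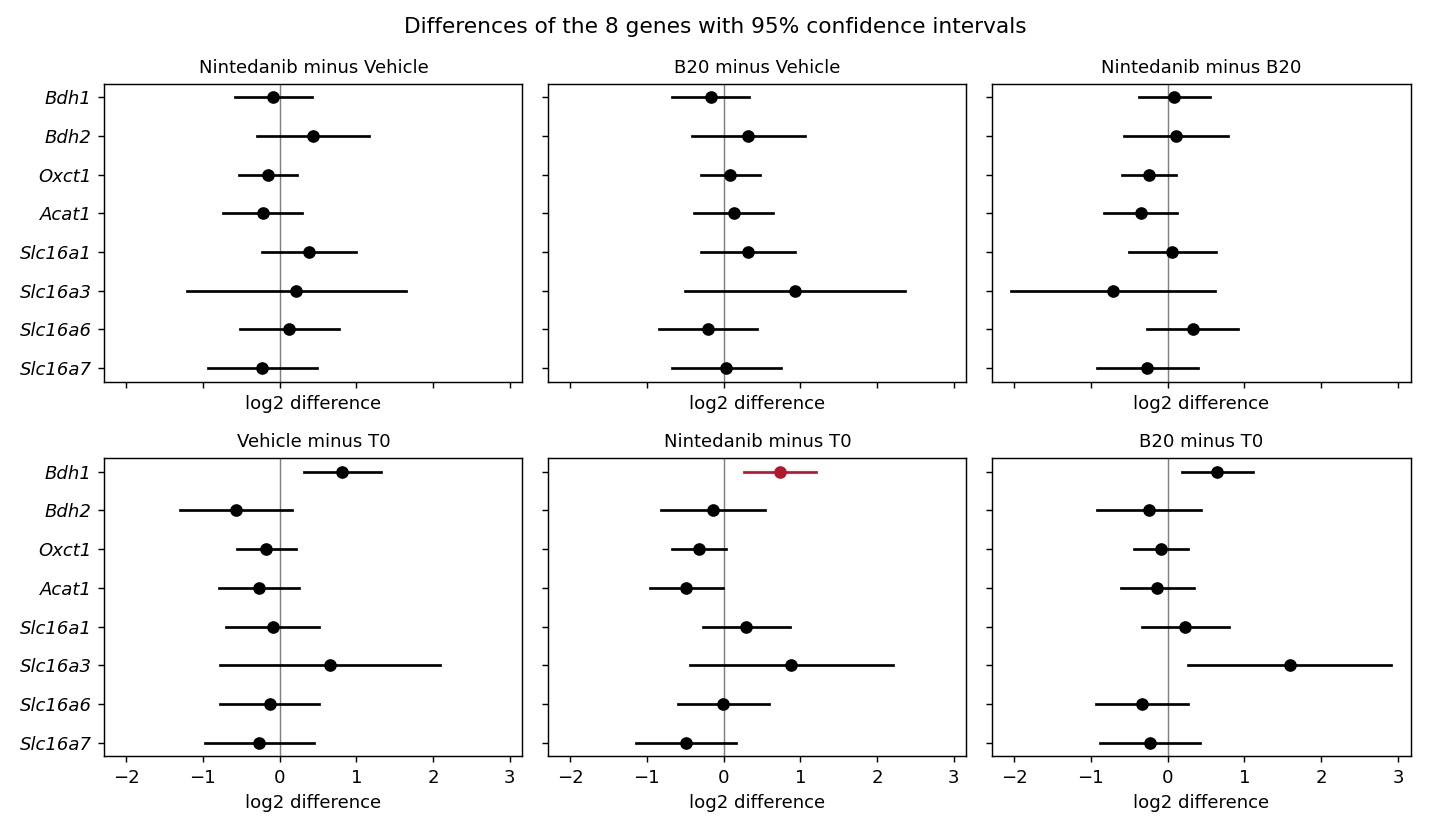
Log2 difference (horizontal axis) of each of the 8 genes in the 6 comparisons, with its 95% confidence interval from the limma fit; the gene called at an adjusted p under 0.05 is in red. Bdh1 against T0 lies to the right of 0 in all 3 lower panels, and the intervals of Slc16a3 are the widest.

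Bdh2 encodes a cytosolic dehydrogenase of the same short-chain family, linked both to ketone body use and to the making of a mammalian siderophore. Its levels were -1.63, -1.25, -0.44 and -0.32 in nintedanib tumours, -0.43, -0.85, -1.14 and -1.64 in B20 tumours, -1.59, -1.25 and -1.19 in vehicle tumours, and -0.36, -1.08, -0.96 and -0.69 in T0 tumours. Nintedanib and B20 tumours each spanned more than 1 log2 unit, and all vehicle tumours lay below all T0 tumours. Vehicle minus T0 was -0.57 ± 0.34 (adjusted p = 0.369). Of the 8 genes, 2 had groups that did not overlap in this comparison, Bdh1 and Bdh2, where 16.6% of all genes did. Nintedanib minus vehicle was 0.43 (95% interval -0.30 to 1.17) and B20 minus vehicle 0.32 (-0.41 to 1.06). On the 8-array slide B20 minus vehicle was 0.61, and on the 3-array slide it was -0.46.

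Among the end-of-treatment tumours, Bdh2 was high where adipocyte genes were high. Over these 11 arrays Pearson r was 0.89 (permutation p = 0.00031, adjusted p = 0.0397) and Spearman rho was 0.90 (permutation p = 0.00053, adjusted p = 0.0678). The permutations mixed groups and slides, so these p-values do not separate differences between groups from covariation within them. Of the end groups, vehicle had the lowest mean of both, -1.34 for Bdh2 and -0.83 for adipocyte genes. Without the 2 arrays farthest from the median adipocyte level r was 0.80, and on the 8-array slide it was 0.88. The next relations of Bdh2 were with erythroid genes (r = 0.85, permutation p = 0.00122, adjusted p = 0.0774) and macrophage genes (r = 0.81, permutation p = 0.00242, adjusted p = 0.0774), which did not pass the adjustment. Their Spearman rho was 0.86 (permutation p = 0.0013, adjusted p = 0.0798) and 0.81 (permutation p = 0.00393, adjusted p = 0.126). Without the 2 farthest arrays these r were 0.92 and 0.70, and on the 8-array slide 0.87 and 0.73. The relation of Bdh2 with adipocyte genes was the only one of the 128 past 0.05 after adjustment by Pearson, and none passed by Spearman. T0 tumours were left out because they form a separate cluster in adipocyte level. With them included, r of Bdh2 with adipocyte genes over the 15 arrays was lower, 0.69. Their Bdh2 levels, -1.08 to -0.36, lay within the nintedanib range of -1.63 to -0.32, though their adipocyte levels were the highest.

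**Figure D3:**
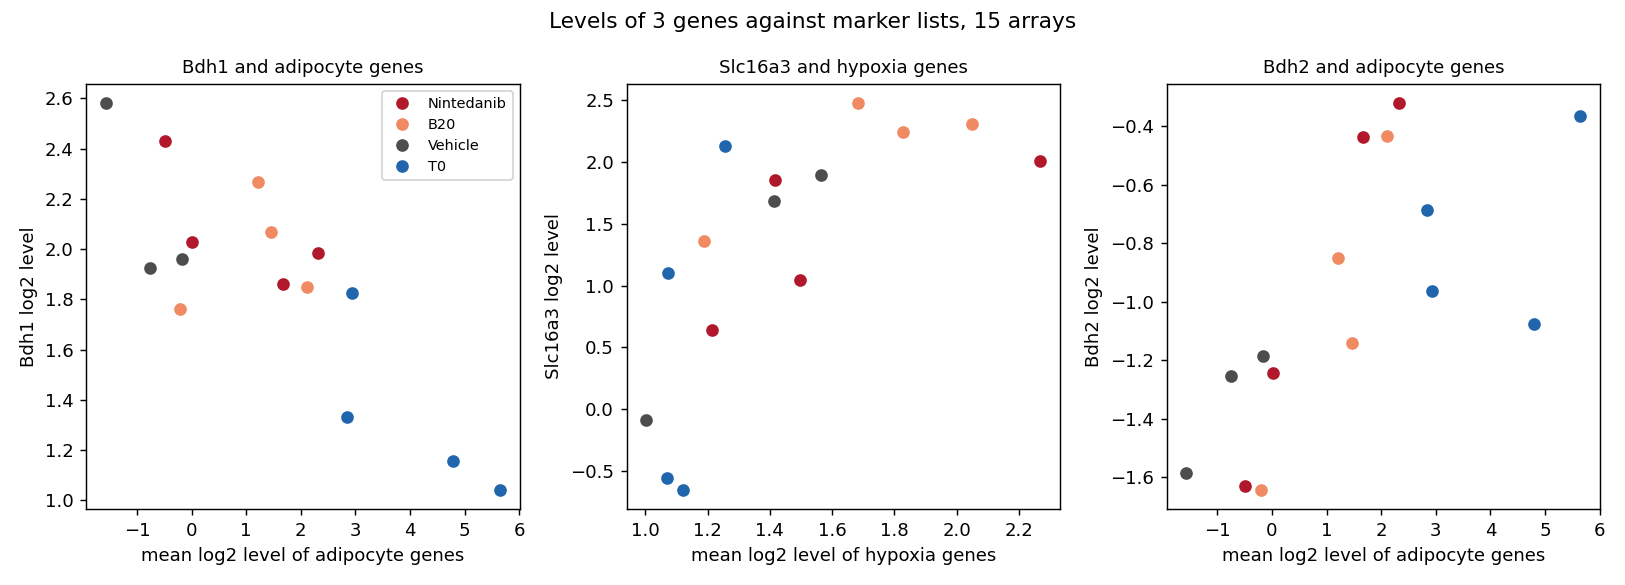
Log2 level of Bdh1, Slc16a3 or Bdh2 (vertical axes) against the mean log2 level of adipocyte or hypoxia genes (horizontal axes), 1 point per array and 1 colour per group. T0 tumours sit apart at adipocyte levels of 2.84 to 5.65, and among the other 11 arrays Bdh2 is higher where adipocyte genes are higher.

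Oxct1, the CoA transferase that commits acetoacetate to oxidation, had group means of 4.29 in nintedanib, 4.53 in B20, 4.44 in vehicle and 4.61 in T0 tumours. Its levels were 4.4, 4.25, 4.4 and 4.12 in nintedanib tumours, 4.52, 4.67, 4.46 and 4.47 in B20 tumours, 4.42, 4.14 and 4.75 in vehicle tumours, and 4.96, 4.55, 4.45 and 4.49 in T0 tumours. The 4 nintedanib tumours lay below all B20 and all T0 tumours and overlapped vehicle. Nintedanib minus B20 was -0.24 ± 0.16 (adjusted p = 0.676) and nintedanib minus T0 -0.32 ± 0.16 (adjusted p = 0.217), and neither passed the test. Oxct1 was the 1 of 8 genes whose groups did not overlap between nintedanib and B20, where 5.72% of all genes did not. Between nintedanib and T0, Bdh1 and Oxct1 did not overlap, 2 of 8, beside 16.8% of all genes. The interval of nintedanib minus vehicle was -0.53 to 0.23, and that of B20 minus vehicle -0.29 to 0.47. Within slides, nintedanib minus B20 was -0.20 on the 8-array slide and -0.35 on the 3-array slide.

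Acat1, the mitochondrial thiolase that splits acetoacetyl-CoA and also acts in isoleucine breakdown, had its lowest mean in nintedanib tumours. Its levels were 2.98, 2.99, 3.30 and 3.24 in nintedanib tumours, 3.53, 3.74, 3.50 and 3.14 in B20 tumours, 3.09, 3.61 and 3.33 in vehicle tumours, and 4.18, 3.74, 3.09 and 3.45 in T0 tumours. All groups overlapped, since B20 replicate 4, vehicle replicate 1 and T0 replicate 3 lay within the nintedanib range. Nintedanib minus T0 was -0.49 ± 0.22 (adjusted p = 0.169) and nintedanib minus B20 -0.35 ± 0.22 (adjusted p = 0.643). With T0 replicates 3 and 4 left out, nintedanib minus T0 was -0.83 and passed the test (adjusted p = 0.0242), and with T0 replicates 1 and 2 left out it was -0.14 (adjusted p = 0.74). Nintedanib minus vehicle was -0.22 (95% interval -0.73 to 0.30), and B20 minus vehicle 0.13 (-0.38 to 0.65).

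**Figure D4:**
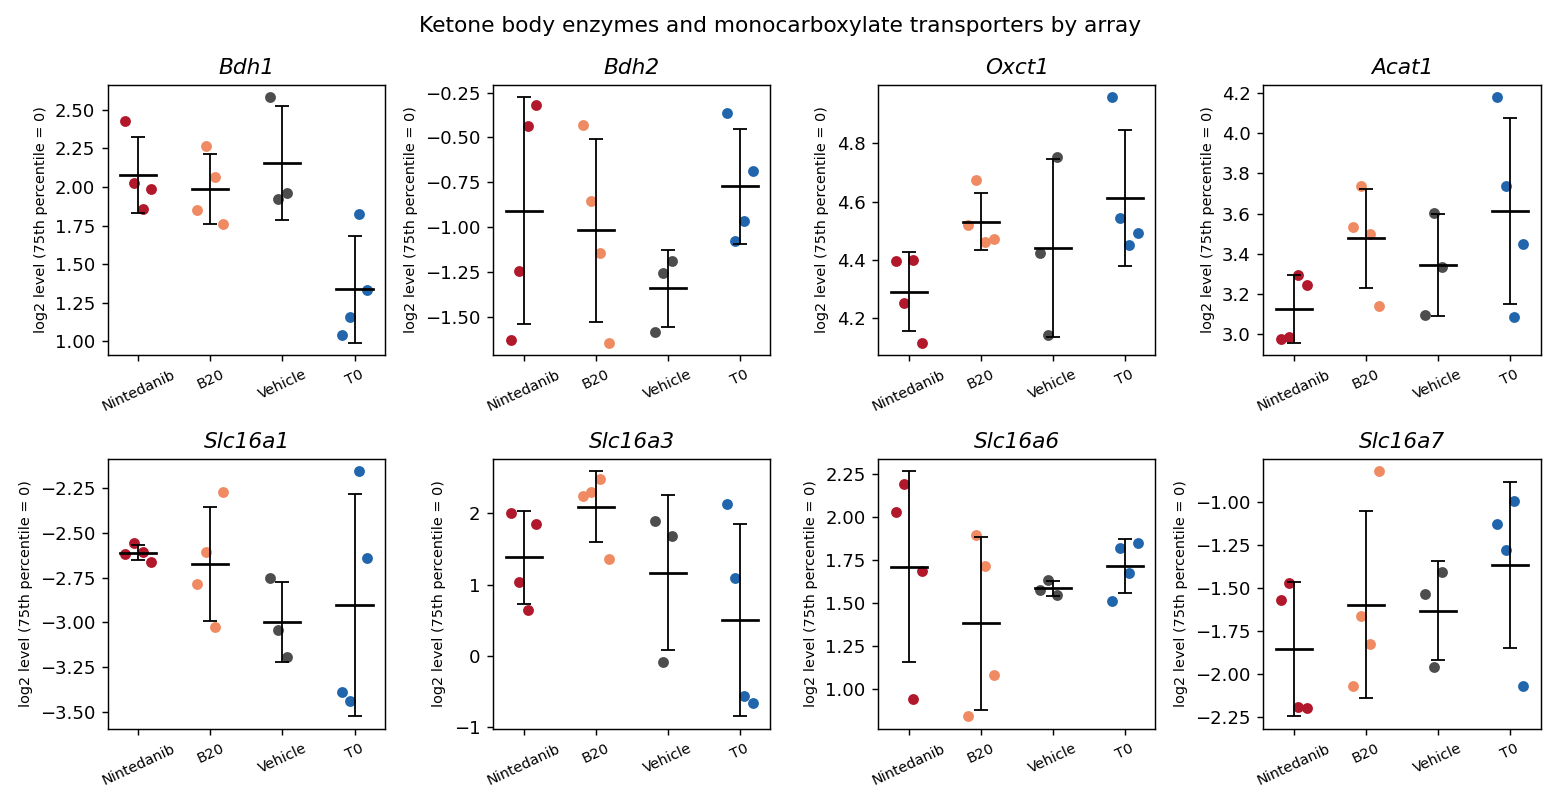
Log2 level of each of the 8 genes on each array (points) by group, with the group mean (long bar) and SD (whiskers); vertical scales differ between genes. Bdh1 is lowest in T0 tumours, and Slc16a3 spreads over more than 2 log2 units within T0.

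Among the transporters, Slc16a3 and Slc16a1 are the best studied in tumours. Slc16a3 encodes MCT4, which exports lactate from glycolytic cells and whose promoter is known to answer to hypoxia-inducible factor. Slc16a1 encodes MCT1, which carries lactate, pyruvate and ketone bodies in either direction. The 250 bases before the start of each gene are shown because the core of the hypoxia response element, ACGTG, occurs in both. The sequences are from RefSeq on build GRCm38.p6, plus strand, the strand of both genes. They span chr11:120948817-120949066 for Slc16a3 and chr3:104638414-104638663 for Slc16a1, and end 1 base before the start site. Capitals mark ACGTG read on either strand.
Slc16a3: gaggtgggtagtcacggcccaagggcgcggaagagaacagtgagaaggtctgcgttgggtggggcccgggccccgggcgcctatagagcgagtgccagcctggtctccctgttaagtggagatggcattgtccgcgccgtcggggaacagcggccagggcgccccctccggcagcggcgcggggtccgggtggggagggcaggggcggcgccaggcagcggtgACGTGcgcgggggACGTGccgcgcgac
Slc16a1: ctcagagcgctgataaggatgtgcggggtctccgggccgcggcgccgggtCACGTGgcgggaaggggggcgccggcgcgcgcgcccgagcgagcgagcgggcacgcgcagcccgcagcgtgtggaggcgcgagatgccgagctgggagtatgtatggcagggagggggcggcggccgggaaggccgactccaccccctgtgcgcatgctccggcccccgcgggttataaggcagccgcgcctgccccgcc
Slc16a3 holds ACGTG 2 times on its own strand, beginning at positions -27 and -14 from the start. Slc16a1 holds it once within CACGTG, a palindrome also known as the E-box, so that the motif reads on both strands, from -200 and -199. Of 32851 such windows in the table, 5444 (16.6%) held ACGTG on either strand. That share covers windows of any base content. The G and C bases made up 73.6% of the Slc16a3 window and 76.4% of the Slc16a1 window. The table held windows for 5 of the 8 genes. Bdh2 and Oxct1 had 1 match each, on the other strand, at -74 and -97, and both windows of Bdh1 had none. A match is a run of letters, not a shown binding site.

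Slc16a3 had the largest single difference of the 8 genes, in B20 against T0, and a wide spread within groups, with an SD of 1.35 in T0 tumours. Its levels were 2.0, 1.04, 0.64 and 1.86 in nintedanib tumours, 2.24, 2.30, 2.48 and 1.36 in B20 tumours, 1.89, -0.08 and 1.69 in vehicle tumours, and 2.13, 1.10, -0.56 and -0.65 in T0 tumours. On this probe 3 of the B20 tumours lay above all other tumours, and the fourth lay within the range of every group. On the second probe 2 did, since T0 replicate 1, at 2.24, lay above B20 replicate 1, at 2.10. The T0 tumours split by slide, with replicates 1 and 2 high and replicates 3 and 4 low. B20 minus T0 was 1.59 ± 0.61, 3.02-fold, and did not pass the test (adjusted p = 0.119). With T0 replicates 1 and 2 left out it was 2.70 (adjusted p = 0.041), and with T0 replicates 3 and 4 left out it was 0.48 (adjusted p = 0.6). B20 minus vehicle was 0.93 ± 0.66 (adjusted p = 0.999, 95% interval -0.50 to 2.36). On the 8-array slide this difference was 1.44, and on the 3-array slide, with 1 array a group, it was -0.33. Nintedanib minus B20 was -0.71 (-2.03 to 0.61), with -1.11 on the 8-array slide and 0.50 on the 3-array slide. Nintedanib minus vehicle was 0.22 (-1.21 to 1.65). The second Slc16a3 probe gave 1.44 ± 0.63 for B20 minus T0 and 0.97 ± 0.68 for B20 minus vehicle.

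Slc16a3 and a list of 12 hypoxia genes were set side by side because MCT4 is a known hypoxia target. The mean level of the list was 1.22 to 2.27 in nintedanib, 1.19 to 2.05 in B20, 1.00 to 1.57 in vehicle and 1.07 to 1.26 in T0 tumours. Over the 11 end-of-treatment arrays Pearson r was 0.76 (permutation p = 0.00667, adjusted p = 0.171) and Spearman rho was 0.85 (permutation p = 0.00187, adjusted p = 0.0798), so the relation did not pass the adjustment over 128. Without the 2 arrays farthest from the median r was 0.86, and on the 8-array slide it was 0.83. Bdh1 and the hypoxia list gave Pearson r = 0.61 (permutation p = 0.0453, adjusted p = 0.483). Their Spearman rho was 0.64 (permutation p = 0.0393, adjusted p = 0.645), so this relation did not pass either. For Bdh1 r was 0.32 without the 2 farthest arrays and 0.52 on the 8-array slide. The 3 B20 tumours with the highest Slc16a3 had hypoxia means of 1.68 to 2.05, and vehicle replicate 2, with the lowest Slc16a3 of the treated and vehicle tumours, had the lowest hypoxia mean of all, 1.00.

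Slc16a1 was measured by 1 dim probe, with processed signals of 30.4 to 110 on the scanner's scale. Its levels were -2.62, -2.56, -2.60 and -2.66 in nintedanib tumours, -2.79, -2.60, -3.03 and -2.27 in B20 tumours, -2.75, -3.04 and -3.19 in vehicle tumours, and -3.39, -3.44, -2.15 and -2.64 in T0 tumours. The nintedanib tumours lay close together, with an SD of 0.04, and above all vehicle tumours. It was the 1 of 8 genes whose groups did not overlap between nintedanib and vehicle, where 7.35% of all genes did not. The difference was 0.39 ± 0.28 (adjusted p = 0.999), with 0.30 on the 8-array slide and 0.53 on the 3-array slide, and 0.10 after normexp background correction. B20 minus vehicle was 0.32 ± 0.28 (adjusted p = 0.999), with 0.09 and 0.92 on the 2 slides. None of the 8 genes was free of overlap between B20 and vehicle, where 5.39% of all genes were, or between B20 and T0, where 15.5% were. The T0 tumours split by slide again, replicates 1 and 2 being low and replicate 3, the array with the most probes above background, the highest of all 15. Nintedanib minus T0 was 0.29 ± 0.26 (adjusted p = 0.5). With T0 replicates 3 and 4 left out it was 0.80 (adjusted p = 0.022), and with T0 replicates 1 and 2 left out it was -0.21.

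Slc16a6 encodes MCT7, which in zebrafish exports beta-hydroxybutyrate from the liver. Its levels were 2.03, 2.20, 0.94 and 1.68 in nintedanib tumours, 0.84, 1.89, 1.71 and 1.08 in B20 tumours, 1.58, 1.63 and 1.55 in vehicle tumours, and 1.51, 1.82, 1.68 and 1.85 in T0 tumours. On this probe the drug-treated tumours spread on both sides of the vehicle and T0 tumours, with SDs of 0.56 in nintedanib, 0.50 in B20, 0.04 in vehicle and 0.16 in T0 tumours. On the second probe the SDs were 0.52 in nintedanib, 0.54 in B20, 0.38 in vehicle and 0.27 in T0 tumours, so the narrow vehicle range was not seen there. Whether these spreads differ was not tested. No difference passed the test. The largest, B20 minus T0 and nintedanib minus B20, were -0.33 ± 0.28 and 0.33 ± 0.28 (adjusted p = 0.481 and 0.757). Nintedanib minus T0 was -0.0029 (95% interval -0.60 to 0.59) and took the opposite sign under normexp, quantile normalisation and the authors' values. Its second probe gave 0.21 ± 0.30.

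Slc16a7 encodes MCT2, a high-affinity carrier of pyruvate, lactate and ketone bodies. Its levels were -1.57, -1.47, -2.19 and -2.20 in nintedanib tumours, -2.07, -1.67, -1.83 and -0.82 in B20 tumours, -1.54, -1.96 and -1.41 in vehicle tumours, and -1.13, -1.28, -1.0 and -2.07 in T0 tumours. All groups overlapped. B20 replicate 4 was the highest of the 15 arrays and nintedanib replicate 4 the lowest, both on the 3-array slide. Nintedanib minus B20 was -0.26 ± 0.30 (adjusted p = 0.847), with 0.11 on the 8-array slide and -1.37 on the 3-array slide. Nintedanib minus vehicle was -0.22 (95% interval -0.93 to 0.48) and B20 minus vehicle 0.04 (-0.67 to 0.74). Nintedanib minus T0 was -0.49 ± 0.30 (adjusted p = 0.316). Over the 11 end-of-treatment arrays Slc16a7 was lower where macrophage genes were higher (Pearson r = -0.82, permutation p = 0.00208, adjusted p = 0.0774), and this did not pass the adjustment. Spearman rho was -0.75 (permutation p = 0.0113, adjusted p = 0.29), r was -0.57 without the 2 farthest arrays and -0.48 on the 8-array slide.

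Across the drug comparisons the 2 slides often differed in sign. The 8-array and 3-array slides gave the same sign for 5 of the 8 genes in nintedanib against vehicle, for 3 of 8 in B20 against vehicle and for 3 of 8 in nintedanib against B20.

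The rest of the pathway was followed through 4 lists of other genes. Of the 7 other ketone enzymes, all tested, 1 was called higher and 1 lower in B20 tumours relative to T0. Over all genes these shares were 5.78% and 3.72%. None of the 7 was called in vehicle tumours, where 2.8% of all genes were called higher and 2.12% lower. Aacs, which activates acetoacetate for lipid synthesis, had levels of 1.5, 1.93, 1.83 and 1.82 in B20 tumours and 4.29, 3.24, 2.57 and 2.19 in T0 tumours, and fell by 1.30 ± 0.35 (adjusted p = 0.0349). Oxct2b, a testis-type CoA transferase with the near-identical copy Oxct2a, had levels of -0.69, -0.74, -0.62 and -0.19 in B20 tumours and -2.0, -1.76, -3.12 and -2.26 in T0 tumours, and rose by 1.72 ± 0.47 (adjusted p = 0.0368). Its probe may also read the copy. The Aacs call was lost under 12 of 21 alternatives and the Oxct2b call under 15 of 21. The highest Aacs levels were in T0 replicates 1 and 2, the samples with the most adipocyte, endothelial, fibroblast and, within T0, skeletal muscle signal, whose part in the difference was not tested.

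Of the 10 other SLC16 family members, 9 were tested. Relative to T0, 3 were called lower in nintedanib tumours, 2 in B20 tumours and 1 in vehicle tumours, and none was called higher. Of all genes, 4.61%, 3.72% and 2.12% were called lower in these groups, and 6.82%, 5.78% and 2.8% higher. By sign alone, 4 family members were higher and 5 lower in nintedanib, 3 and 6 in B20, and 5 and 4 in vehicle tumours. Slc16a9, linked in humans to carnitine and creatine transport, was the one called lower in all 3 groups. Its levels were -3.21, -2.62, -2.61 and -2.68 in nintedanib tumours, -2.39, -2.54, -2.79 and -2.80 in B20 tumours, -2.97, -2.32 and -2.58 in vehicle tumours, and -1.14, -1.67, -0.75 and -1.72 in T0 tumours. No end-of-treatment tumour reached the T0 range. The difference from T0 was -1.46 ± 0.24 in nintedanib (adjusted p = 0.00429), -1.31 ± 0.24 in B20 (adjusted p = 0.00877) and -1.30 ± 0.26 in vehicle tumours (adjusted p = 0.014). The nintedanib and B20 calls held under all 21 alternatives. The vehicle call was lost under 3 of 20, without vehicle replicate 1, without T0 replicates 1 and 2 and with only the vehicle and T0 arrays in the fit.

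Slc16a12, a creatine transporter, fell relative to T0, with differences of -1.42 ± 0.27 in nintedanib (adjusted p = 0.00777) and -1.08 ± 0.27 in B20 tumours (adjusted p = 0.027). Slc16a10, a carrier of aromatic amino acids, fell in nintedanib tumours, with a difference of -0.86 ± 0.19 (adjusted p = 0.0127). Neither Slc16a12 nor Slc16a10 was called in vehicle tumours against T0, or in either drug group against vehicle. The Slc16a12 call held under all 21 alternatives in nintedanib tumours and was lost under 7 of 21 in B20 tumours, and the Slc16a10 call was lost under 4 of 21. None of these 3 genes is known mainly as a carrier of lactate or ketone bodies.

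Of the 4 chaperones and sodium-coupled transporters, 1 was called higher than T0 in nintedanib tumours and 1 in B20 tumours. None was called in vehicle tumours. It was Emb in both drug groups, the gene for embigin, a partner glycoprotein of monocarboxylate transporters. Its levels were 0.71, 1.10, 0.90 and 0.65 in nintedanib tumours, -0.10, 0.71, 0.76 and 0.18 in B20 tumours, 0.68, -0.21 and 0.30 in vehicle tumours, and -0.48, -0.20, -0.82 and -0.36 in T0 tumours. The difference from T0 was 1.30 ± 0.24 in nintedanib (adjusted p = 0.00662), 0.85 ± 0.24 in B20 (adjusted p = 0.0418) and 0.72 ± 0.26 in vehicle tumours (adjusted p = 0.123). The nintedanib call was lost under 1 of 21 alternatives, median scaling, and the B20 call under 16 of 21. Of all genes, 6.82% were called higher than T0 in nintedanib and 5.78% in B20 tumours.

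Of the 6 genes of lactate and pyruvate handling, 1 was called higher than T0 in nintedanib tumours, 1 in B20 tumours and none in vehicle tumours. It was Ldhd in both drug groups, the mitochondrial D-lactate dehydrogenase, at 2.64 to 2.77 in nintedanib, 2.35 to 2.98 in B20, 2.52 to 2.59 in vehicle and 1.54 to 2.29 in T0 tumours. Vehicle tumours, like those of both drug groups, all lay above every T0 tumour, though the vehicle difference was not called. Ldhd rose by 0.71 ± 0.19 in nintedanib (adjusted p = 0.0287) and by 0.77 ± 0.19 in B20 tumours (adjusted p = 0.0254). These calls were lost under 9 and 6 of 21 alternatives. Of all genes, 6.82%, 5.78% and 2.8% were called higher than T0 in nintedanib, B20 and vehicle tumours. Mpc1, a subunit of the mitochondrial pyruvate carrier, had the lowest p of this list in vehicle against T0, at -1.40 ± 0.41 (adjusted p = 0.0663).

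**Figure D5:**
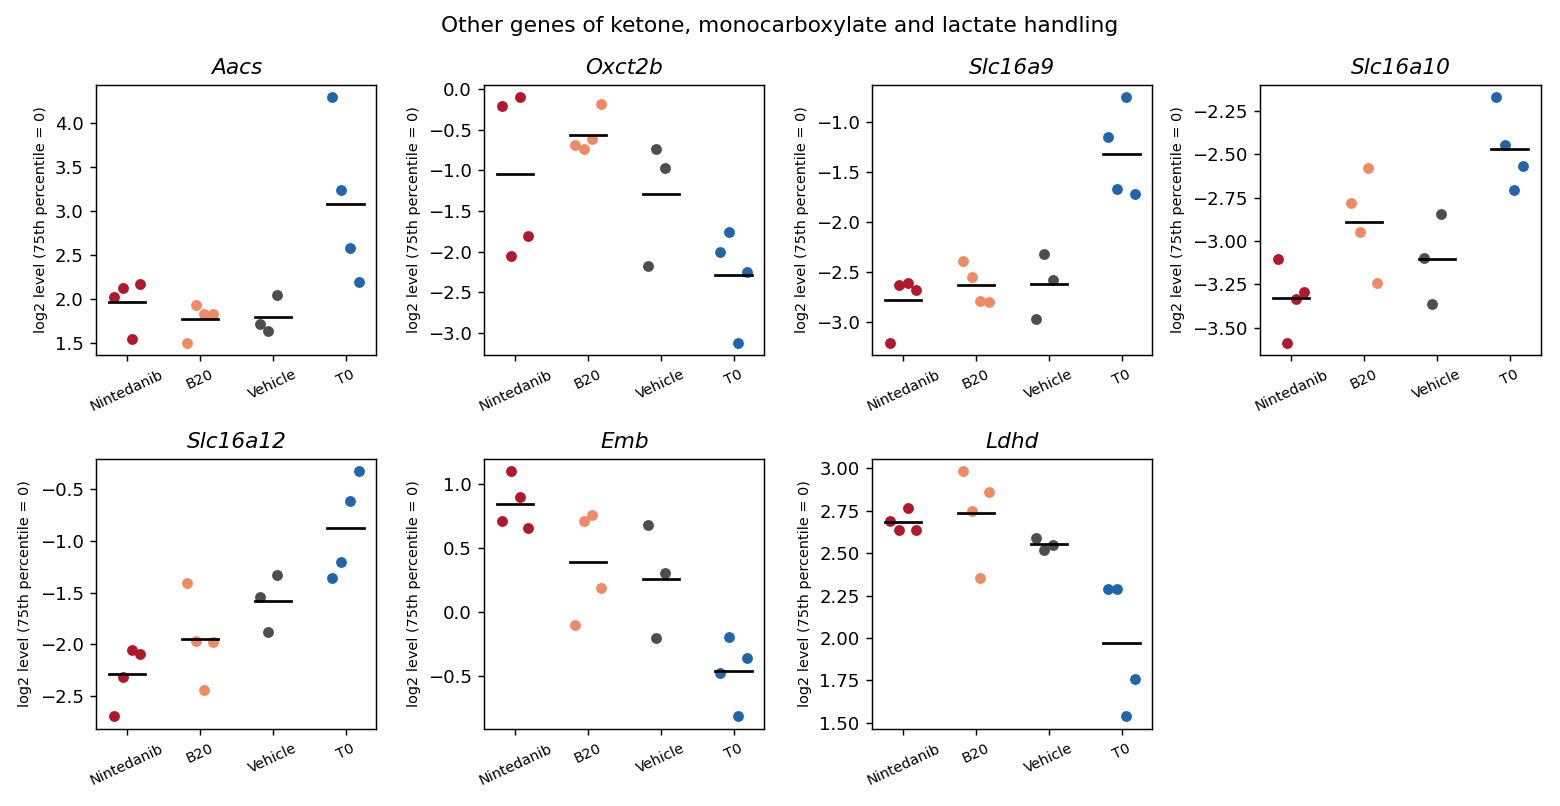
Log2 level of 7 other pathway genes that passed the test in at least 1 comparison, 1 point per array by group, with the group mean as a bar. All points were well above background. Slc16a9 lies lower in every end-of-treatment tumour than in any T0 tumour.

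No gene of the 4 lists was called in the drug comparisons. The lowest p-values for nintedanib against vehicle belonged to Slc16a5 (1.33 ± 0.42, adjusted p = 0.82), Emb (0.58 ± 0.26), Ldhc (0.91 ± 0.85) and Hmgcll1, 1 from each list. Slc16a5 was well above background on all 4 nintedanib and 2 of 3 vehicle arrays. Its difference was 0.41 after normexp, 0.42 with the authors' values and 0.04 with the mean of its probes. Of the 3 vehicle arrays, 1 had Ldhc well above background. Hmgcll1 was not well above background on any nintedanib array and was so on 2 of 3 vehicle arrays, and no fold is given for it. For B20 against vehicle they belonged to Slc16a13 (-0.33 ± 0.21), Bsg (0.46 ± 0.43), Ldha (0.32 ± 0.18) and Oxct2b (0.73 ± 0.51), each with adjusted p = 0.999. For nintedanib against B20 they belonged to Slc16a10 (-0.44 ± 0.19, adjusted p = 0.526), Emb (0.45 ± 0.24, adjusted p = 0.576), Ldha (-0.29 ± 0.16, adjusted p = 0.591) and Acat2 (-0.40 ± 0.26, adjusted p = 0.656).

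The 3 named genes whose levels followed each of the 8 most closely over the 15 arrays were found among 13419 candidates. The measure was Pearson's r, and the arrays share the T0 and end-of-treatment groups. For Bdh1 they were S100pbp (r = 0.92), Espn (0.90) and Lin28a (0.89), and over the 11 end-of-treatment arrays these values were 0.73, 0.77 and 0.65. For Bdh2 they were Hpse (0.90), Kazald1 (0.87) and Gm3448 (0.86). Oxct1 was followed by Tiparp (0.90), Rgs4 (0.86) and Nudt4 (0.82). Acat1 had the closest of all, Ndufs3 (0.94), Echs1 (0.94) and Fech (0.94), with 0.91, 0.87 and 0.88 over the 11 arrays. Slc16a1 was followed by 1700016H13Rik (0.90), Ifna14 (0.88) and Ankub1 (0.84), with 0.92, 0.70 and 0.54 over the 11 arrays. Slc16a7 was followed by Trpm1 (0.92), Cftr (0.92) and Akap7 (0.91). For Slc16a3 the r values were lower, with Rnd1 (0.82), P4ha2 (0.80) and Vegfa (0.79), and 0.70, 0.73 and 0.74 over the 11 arrays. P4ha2 and Vegfa stand in the hypoxia list. Slc16a6 had the lowest, with Slc29a4 (0.81), Engase (0.78) and Disp1 (0.77). For Bdh2, Oxct1, Slc16a6 and Slc16a7 the values over the 11 arrays were 0.78 to 0.93. The 11 arrays are among the 15 used to choose these genes, so their r values are not a separate check.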

How the data were processed

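Total RNA of 15 tumours, 0.5 ug each per the labels' protocols, was labelled with Cy3 and hybridised to Agilent arrays of design 028005. Per the file headers, Feature Extraction 10.7.3.1 read the arrays, with background subtraction and spatial detrending. The authors deposited each spot's intensity as a processed signal, not normalised between arrays, and these values were used. Flags for background, saturation and outliers are other values of 0 or 1 per the file headers. The log2 values in the authors' deposited table of the series have a scale and making not stated. They were closely matched by normexp (offset 50) plus quantile normalisation, at a median r of 0.99992 per array. Their column medians were 6.616 to 6.627, so genes are not centred, and higher is brighter.

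Control and outlier spots were left out, and spots of 1 probe averaged. The log2 intensity was scaled to each array's 75th percentile with no constant added. Probes well above background on at least 3 arrays were kept, named through RefSeq (GRCm38.p6), and the probe with the highest mean taken per gene. No value of the 8 genes was imputed or saturated. limma 3.58.1 in R 4.3.3 fitted 4 group means to 15 arrays. Tests were two-sided, and the median SE was 0.29 log2 for 4 against 3 arrays and 0.27 for 4 against 4, so the number of arrays limits precision. The fit was tested on simulated data. Relations over the 11 end-of-treatment arrays used 100000 permutations, made across groups and slides. Replicate numbers were not used to pair the samples. Deviations of same-numbered samples correlated at -0.25 to 0.38, and those of differently numbered samples at -0.30 to 0.47.

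The members and lists were chosen with earlier results of these data known. Named beside the 8 genes are, per pathway list and comparison, the gene with the lowest p and any called gene, and per member the 3 genes most like it over the 15 arrays. One gene of the ketone enzyme list that this rule names is not reported here. The marker lists were hypoxia, adipocytes, skeletal muscle, luminal and basal epithelium, fibroblasts and matrix, endothelium, macrophages, neutrophils, T and NK cells, erythroid cells and cell cycle. Alternatives changed the background correction (normexp on median signals, since the files hold no mean signal), scaling, filter, probe choice, weights, blocks and arrays.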

Additional observations from a re-analysis of the deposited data

Results flagged for a closer look

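Among the 8 genes and the named pathway genes, 72 groups of 4 arrays were examined for a sample far from the others, and 3 (4.17%) had one. Chance gives about 1 in 20, and none was among the 8 genes. Ldhc, the testis-type lactate dehydrogenase, stood at -3.03 in nintedanib replicate 4, with the other nintedanib tumours at -5.14 to -4.81. It stood at -4.33 in B20 replicate 1, with the other B20 tumours at -6.03 to -5.79 and not well above background. Slc16a9 stood at -3.21 in nintedanib replicate 1, below the other nintedanib tumours at -2.68 to -2.61 and farther from T0 than they were.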

How the results depend on the processing

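Across all alternatives Bdh1 stayed higher in each end group than in T0, by 0.50 to 0.98 in nintedanib, 0.41 to 0.89 in B20 and 0.58 to 1.06 in vehicle tumours. The members called in nintedanib against T0 numbered 1, and 0 with median scaling, with no filter, with the replicate block, with only the 2 groups, with slide as a random block and without T0 replicates 1 and 2, and 3 with array weights and without T0 replicates 3 and 4. In vehicle against T0 the number was 0, and 1 with the authors' values, with the filter on all arrays, with array weights and without T0 replicates 3 and 4. In B20 against T0 it was 0, and 1 with array weights, 1 without T0 replicates 1 and 2, and 2 without T0 replicates 3 and 4. Leaving out 1 replicate gave 0 to 1 in each of these. The choice to leave out T0 slides was made after seeing the data.

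The genes called in all were 1380 for vehicle, 3209 for nintedanib and 2667 for B20 against T0. For vehicle they were 679 with median scaling, 895 with no filter, 5281 with array weights, 17 with only the 2 groups, 872 with slide as a random block, 214 without T0 replicates 1 and 2, 3340 without T0 replicates 3 and 4, and 479 to 2094 leaving out 1 replicate. For nintedanib they were 1362 with median scaling, 7919 with array weights, 1444 with only the 2 groups, 2026 with slide as a random block, 1044 without T0 replicates 1 and 2, 5040 without T0 replicates 3 and 4, and 1612 to 3918 leaving out 1 replicate. For B20 they were 1608 with normexp, 1181 with median scaling, 6071 with array weights, 972 with only the 2 groups, 1526 with slide as a random block, 456 without T0 replicates 1 and 2, 4285 without T0 replicates 3 and 4, and 919 to 3306 leaving out 1 replicate. Against vehicle, nintedanib gave 12 with array weights and 0 to 1 leaving out 1 replicate, and against B20 it gave 1 with only the 2 groups. The cause was not tested. Normexp moved the median of all genes from -0.04 to -0.16 in nintedanib against B20, and from 0.01 to -0.09 in nintedanib against T0.

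No difference that took another sign was called with either. For nintedanib against vehicle these were Bdh1 with the mean of probes (0.042), and on the 8-array slide Oxct1 (0.065), Slc16a7 (0.0026) and Ldhc (-0.17). For B20 against vehicle it was Slc16a7 with median scaling (-0.0099) and on the 8-array slide (-0.11). For nintedanib against B20 they were Slc16a1 with normexp (-0.089), Ldha with quantile normalisation (0.10) and the authors' values (0.088), and on the 8-array slide Bdh2 (-0.29) and Slc16a7 (0.11). For vehicle against T0 they were Slc16a1 (0.30) and Slc16a3 (-0.33) with array weights, Acat1 (0.077) without T0 replicates 1 and 2, and Slc16a1 (0.42) and Slc16a3 (-0.45) without T0 replicates 3 and 4. For nintedanib against T0 they were Slc16a6 with normexp (0.0023), quantile normalisation (0.037), the authors' values (0.016), the mean of probes (0.10), array weights (0.059) and without T0 replicates 3 and 4 (0.045), Slc16a1 without T0 replicates 1 and 2 (-0.21) and Slc16a3 without T0 replicates 3 and 4 (-0.23). For B20 against T0, without T0 replicates 1 and 2, they were Oxct1 (0.059), Acat1 (0.21) and Slc16a1 (-0.28).

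Leaving out 1 replicate, the ranges that crossed 0 were, for nintedanib against vehicle, Bdh1 -0.20 to 0.13, Oxct1 -0.30 to 0.0069, Slc16a3 -0.40 to 0.59 and Slc16a6 -0.034 to 0.38. For B20 against vehicle they were Bdh1 -0.29 to 0.045, Oxct1 -0.058 to 0.25 and Slc16a7 -0.22 to 0.20. For nintedanib against B20 they were Bdh1 -0.029 to 0.18, Bdh2 -0.10 to 0.35 and Slc16a1 -0.056 to 0.20. Against T0 they were Slc16a1 -0.27 to 0.16 for vehicle, Bdh2 -0.33 to 0.11 and Slc16a6 -0.16 to 0.25 for nintedanib, and Oxct1 -0.13 to 0.035 and Acat1 -0.31 to 0.054 for B20.

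With the replicate number as a block, Bdh1 in nintedanib against T0 kept its difference of 0.74 with adjusted p = 0.0783. The median correlation of same-numbered samples' deviations was 0.01, beside -0.01 for differently numbered samples. A low correlation over all genes cannot settle whether the numbers pair the samples. Vehicle had 3 arrays and the other groups 4, and the Slc16a1 probe gave processed signals of 30.4 to 110 beside local backgrounds of 19 to 26, which limits its precision.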

Other observations

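Car9, a carbonic anhydrase widely used as a hypoxia marker and named here after its values were seen, had levels of 1.83 to 3.19 in nintedanib, 1.19 to 2.52 in B20, 1.55 to 2.39 in vehicle and -0.85 to 0.42 in T0 tumours, so that every end group lay above T0. It rose relative to T0 by 2.68 ± 0.39 in nintedanib (adjusted p = 0.00332), 2.24 ± 0.39 in B20 (adjusted p = 0.00786) and 2.38 ± 0.42 in vehicle tumours (adjusted p = 0.00979) by limma. Slc16a3, the hypoxia target among the transporters, overlapped T0 in every end group. Relative to T0, limma called 2 of the 12 hypoxia genes higher and 1 lower in nintedanib tumours. It called 3 higher in B20 tumours and 1 higher in vehicle tumours. Of all genes, 6.82%, 5.78% and 2.8% were called higher in nintedanib, B20 and vehicle tumours, and 4.61%, 3.72% and 2.12% lower. By sign alone, 7 hypoxia genes were higher and 5 lower in nintedanib, 8 and 4 in B20, and 5 and 7 in vehicle tumours.

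Bsg, the gene for basigin, the partner glycoprotein of MCT1 and MCT4, did not pass the test. Its levels were 4.45 to 4.92 in nintedanib, 3.99 to 5.57 in B20, 3.36 to 4.81 in vehicle and 3.24 to 4.54 in T0 tumours. By limma, nintedanib minus T0 was 0.96 ± 0.40 (adjusted p = 0.131) and B20 minus T0 was 0.91 ± 0.40 (adjusted p = 0.167).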
